A study of Mus musculus with 8 samples.

Results

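The genes of sterol and fatty acid synthesis and of their control by the sterol regulatory element-binding proteins (SREBP) were followed through doxorubicin treatment of mouse embryonic fibroblasts. The members were chosen by name: 34 genes, of which 33 were analysed here out of 30419 rows of the count table, while Hmgcs1 was not analysed here. All 33 were among the 12296 rows with at least 10 counts in 2 or more libraries and were tested. They comprised 6 genes of the mevalonate steps, 11 of the squalene and sterol steps, 6 of SREBP control and sterol transport, and 10 of fatty acid synthesis and desaturation.

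The cells were early-passage fibroblasts of E13.5 mouse embryos, grown in DMEM with serum and taken for RNA after 8 h with 0.2 µg/mL doxorubicin or vehicle. The groups were Dino lox/lox cells with doxorubicin, Dino lox/lox control, Dino +/+ cells with doxorubicin and Dino +/+ control, with 2 libraries each, called A and B in the labels. Dino, a noncoding RNA that p53 switches on after DNA damage, is transcribed next to Cdkn1a, and doxorubicin is a DNA-damaging topoisomerase poison. The labels call the lox/lox cells mutant (mutant below) and the +/+ cells WT. They give no recombinase, no promoter and no number of embryos, and the level of Dino itself was not analysed here. The labels do not say whether A and B came from different embryos or dishes. All p-values set a group difference against the spread between libraries of the same group, and that spread may be only technical.

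SREBPs are made as membrane-bound precursors in the endoplasmic reticulum, where Scap escorts them and the Insig proteins hold the Scap complex back when sterols are plentiful. When sterols run low, Scap carries the precursor to the Golgi, proteases release its N-terminal part, and that part binds promoters of sterol and fatty acid synthesis genes in the nucleus. Fibroblasts can make their own cholesterol and fatty acids by this programme and hold its target mRNAs low when sterols are plentiful.

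With doxorubicin 14 of the 33 genes fell in both genotypes. They included some, not all, genes of the squalene and sterol steps, some fatty acid enzymes and the feedback regulator Insig1. Another 4 rose in both genotypes, namely Scap, the acetate-activating enzyme Acss2, the sterol enzyme Hsd17b7 and the acetoacetyl-CoA thiolase Acat2. Over all rows tested, 22.7% fell in both genotypes and 24.8% rose in both. In mutant cells 16 members fell and 4 rose by edgeR's quasi-likelihood test with Benjamini-Hochberg adjustment over all rows, at an adjusted p under 0.05. Of all rows tested in mutant cells, 25.7% fell and 28.3% rose. In WT cells 16 members fell and 6 rose, where 27.9% of all rows fell and 29.3% rose. Thus 48.5% of the members fell in each genotype, a larger share than over all rows, and 12.1% in mutant cells and 18.2% in WT cells rose, a smaller share. The same shares over all rows are the background for the counts by role group below.

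The median log2 fold change of the members was -0.39 in mutant cells and -0.35 in WT cells, against 0.01 over all rows in each genotype. In mutant cells 25 of the 33 fold changes were below 0, and in WT cells 23 were. No member was called in opposite directions. Besides the 18 called alike in both, Lss and Srebf2 fell in mutant cells only by the threshold, Mvd and Srebf1 fell in WT cells only by the threshold, Insig2 and Nsdhl rose in WT cells only by the threshold, and 9 were called in neither. None of these genes was called for a difference between the genotypes' responses, as given further on. These are bulk RNA measurements, in which fewer cells of a type and less RNA per cell cannot be told apart.

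**Figure D1:**
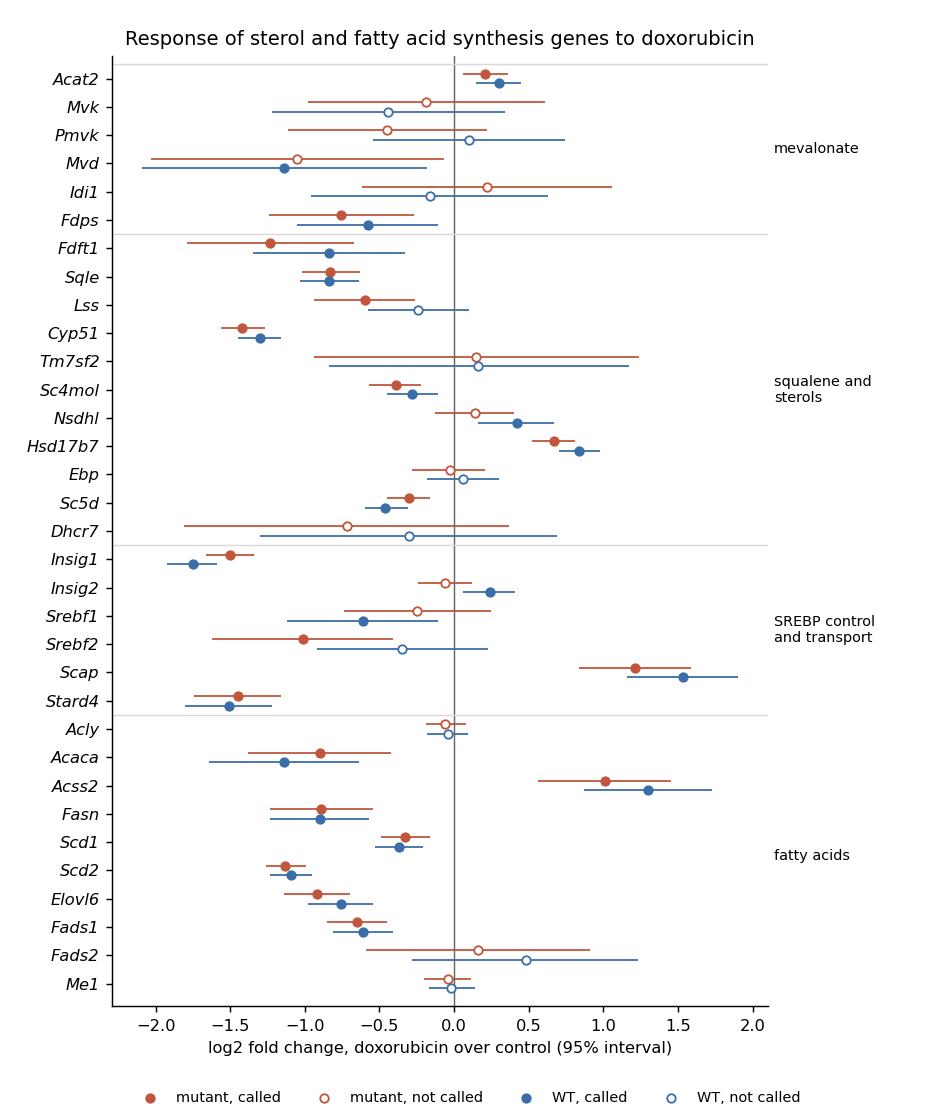
Log2 fold change of each of the 33 genes with doxorubicin over control (horizontal axis) in mutant (red) and WT (blue) cells, with 95% intervals as lines and filled points for calls at an edgeR adjusted p under 0.05. Insig1, Stard4, Cyp51 and Scd2 lie furthest to the left among the narrow intervals, Scap, Acss2 and Hsd17b7 lie to the right, and the genes with few counts, such as Tm7sf2 and Dhcr7, have wide intervals across 0.

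Depth set how firmly each gene can be read. Total counts per library ran from 25482805 to 33285171, and member counts ran from 6 to 18440. Over 1000 counts in every library were found for 10 members, of which 8 were called in both responses. Under 100 counts in every library were found for 11 members, of which 5 were called in at least 1 response. The share called among all rows of the same depth was not computed, so these counts describe depth only. Levels are given as CPM, which scales counts to a common library size, here after TMM scaling, and they are compared only between libraries, never between genes, since they are not per length.

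The genes of SREBP control gave the largest changes in both directions. Of the 6 tested, 3 fell and 1 rose in mutant cells (median log2 fold change -0.63), and 3 fell and 2 rose in WT cells (median -0.48). Insig1, the sterol-sensing anchor that is itself an SREBP target, fell most in both genotypes. It stood at 104 and 109 CPM in mutant doxorubicin libraries A and B, against 296 and 305 CPM in mutant controls. In WT cells it stood at 94.2 and 108 CPM with doxorubicin, against 358 and 326 CPM in controls. All 4 treated libraries lay below all 4 controls. The log2 fold change was -1.50 ± 0.08 (SE; edgeR adjusted p = 5.62e-13) in mutant cells and -1.75 ± 0.08 (edgeR adjusted p = 3.49e-14) in WT cells, which left 35.4% and 29.6% of the control level in mutant and WT cells.

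Its relative Insig2, which does the same anchoring but is not driven by SREBP in the same way, behaved otherwise. Insig2 had 29.2 and 29.3 CPM in mutant doxorubicin libraries, against 29.8 and 31.2 CPM in mutant controls. WT cells had 39.1 and 38.9 CPM with doxorubicin, against 31.5 and 34.6 CPM in controls. The mutant groups were nearly level (log2 fold change -0.06 ± 0.09, edgeR adjusted p = 0.581), while Insig2 rose in WT cells by 0.24 ± 0.08 (edgeR adjusted p = 0.0194). That WT call was lost with upper-quartile scaling (log2 0.18, edgeR adjusted p = 0.0687), without WT control A (0.17, adjusted p = 0.172) and without WT doxorubicin library A (0.24, adjusted p = 0.0541).

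Scap, the escort that carries SREBP to the Golgi, rose in both genotypes. Its level was 4.89 and 4.91 CPM in mutant doxorubicin libraries, against 1.95 and 2.27 CPM in mutant controls. It was 5.17 and 5.23 CPM in WT doxorubicin libraries, against 1.63 and 1.93 CPM in WT controls. Treated libraries lay above controls without overlap, with a 2.32-fold level in mutant cells (log2 1.21 ± 0.18, edgeR adjusted p = 7.01e-06) and a 2.89-fold level in WT cells (log2 1.53 ± 0.18, edgeR adjusted p = 2.14e-07). In GENCODE, 13.2% of the exon bases of Scap overlap the opposite-strand transcript 5830462I19Rik, and no strand setting of the counting is given in the sources used here, so reads from that transcript cannot be told apart.

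Stard4, a carrier that moves cholesterol between membranes and is an SREBP target, fell about as far as Insig1. Mutant libraries had 4.41 and 3.84 CPM with doxorubicin, against 11.0 and 11.6 CPM in controls. WT libraries had 3.35 and 3.98 CPM with doxorubicin, against 10.6 and 10.3 CPM in controls. The groups did not overlap, and the log2 fold changes were -1.45 ± 0.14 in mutant cells (edgeR adjusted p = 1.42e-08) and -1.51 ± 0.14 in WT cells (edgeR adjusted p = 5.51e-09).

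The transcripts of the SREBPs themselves, Srebf1 and Srebf2, had few counts and gave calls in 1 genotype each. Srebf1, which chiefly drives fatty acid genes, had 1.52 and 1.86 CPM in mutant doxorubicin libraries against 2.06 and 1.96 CPM in mutant controls, and 1.26 and 1.25 CPM in WT doxorubicin libraries against 2.12 and 1.76 CPM in WT controls. Srebf2, which chiefly drives sterol genes, had 0.721 and 1.15 CPM in mutant doxorubicin libraries against 1.95 and 1.83 CPM in mutant controls, and 0.994 and 1.35 CPM in WT doxorubicin libraries against 1.52 and 1.47 CPM in WT controls. For both genes and both genotypes every treated library lay below its controls. Srebf2 fell in mutant cells (log2 -1.01 ± 0.29, edgeR adjusted p = 0.00552), while its WT value was -0.35 ± 0.28 (edgeR adjusted p = 0.300). Srebf1 fell in WT cells (log2 -0.61 ± 0.24, edgeR adjusted p = 0.0350), while its mutant value was -0.25 ± 0.24 (edgeR adjusted p = 0.402). The Srebf1 call in WT was lost with DESeq2 (adjusted p = 0.144) and without WT control A, WT doxorubicin A or WT doxorubicin B (edgeR adjusted p = 0.182, 0.0978 and 0.102), and the Srebf2 call in mutant cells was lost without mutant doxorubicin A (log2 -0.72, edgeR adjusted p = 0.0914).

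**Figure D2:**
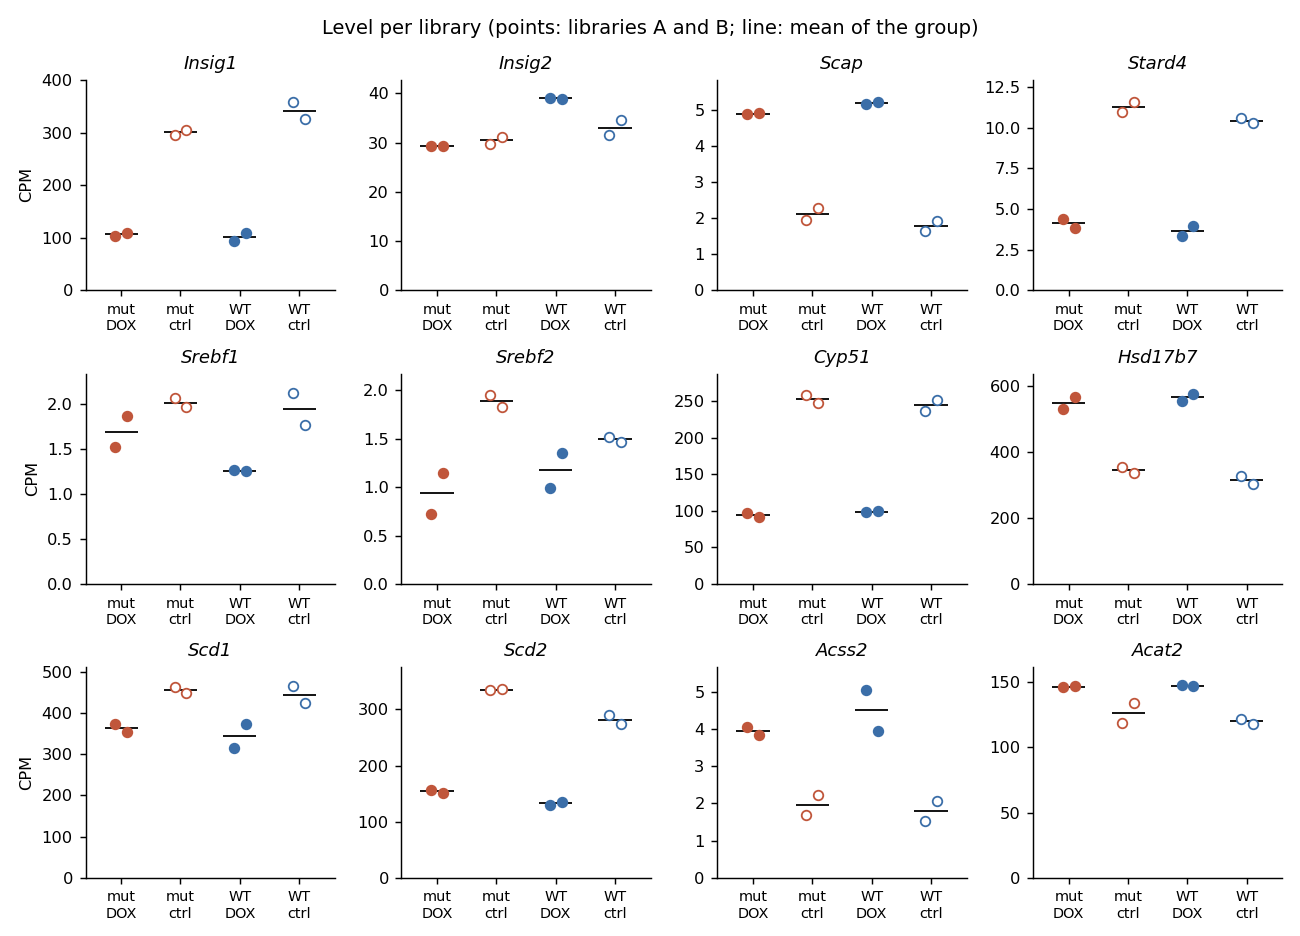
CPM (vertical axis, from 0) of 12 genes in each of the 8 libraries, mutant in red and WT in blue, filled for doxorubicin and open for control, with a line at the mean of each pair. Treated libraries sit below controls for Insig1, Stard4, Cyp51, Scd1 and Scd2 and above them for Scap, Hsd17b7, Acss2 and Acat2 in both genotypes, while Insig2 with doxorubicin sits at 29.2 and 29.3 CPM in mutant cells and at 39.1 and 38.9 CPM in WT cells.

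Promoters of some members that fell and of some that rose are shown because the members moved in opposite directions under the same treatment. RefSeq windows on GRCm38.p6 (250 bases before to 50 after a gene's start) were found for 26 of the 33 genes, 35 windows in all. Fdps, Fdft1, Sqle, Stard4, Scd1, Scd2 and Fads1 had no window. Each of them fell in both genotypes, so the motif shares leave out many of the members that fell. The letters TCACNCCAC, a consensus of the sterol regulatory element, were in none of these 26 genes on either strand, where 1.44% of all 27025 genes with a window and 1.38% of the 8912 tested genes with a window hold them. Real elements vary from this consensus, so its absence in these letters tells nothing about binding. CCAAT, the core that NF-Y binds beside many sterol elements, was in 21 of the 26 (80.8%), against 41.1% of all genes and 43.3% of tested genes. Among members with a window, it was in 7 of 9 that fell in mutant cells, 2 of 4 that rose and 12 of 13 not called. In WT cells it was in 7 of 9, 4 of 6 and 10 of 11. The GC box GGGCGG was in 22 members (84.6%), against 38.2% of all genes and 69.7% of tested genes, and the E-box CACGTG was in 5 (19.2%), against 8.09% and 11.7%. Both strands were searched, the E-box reads the same on both, and no motif tested here contains another. No analysed member held the sterol consensus, so the 4 promoters below were picked after the values were seen: Insig1 (chr5:28071162-28071411, + strand) and Cyp51 (chr5:4104698-4104947, - strand), which fell, and Hsd17b7 (chr1:169969206-169969455, - strand) and Scap (chr9:110333038-110333287, + strand), which rose. Each is the 250 bases that end at the base before the RefSeq start, written 5′ to 3′ on the gene's strand, with capitals on the matches of the last 3 motifs on either strand.
Insig1 promoter: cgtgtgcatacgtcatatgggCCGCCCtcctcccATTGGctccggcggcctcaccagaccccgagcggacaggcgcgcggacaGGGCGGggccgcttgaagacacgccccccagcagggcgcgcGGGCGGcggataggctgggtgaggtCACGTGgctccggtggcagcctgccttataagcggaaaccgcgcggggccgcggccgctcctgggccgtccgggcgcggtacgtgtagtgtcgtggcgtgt
Cyp51 promoter: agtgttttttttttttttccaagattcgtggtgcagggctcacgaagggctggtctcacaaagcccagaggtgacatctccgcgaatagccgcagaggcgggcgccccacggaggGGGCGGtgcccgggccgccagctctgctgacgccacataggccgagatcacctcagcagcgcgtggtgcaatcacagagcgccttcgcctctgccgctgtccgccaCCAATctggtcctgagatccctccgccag
Hsd17b7 promoter: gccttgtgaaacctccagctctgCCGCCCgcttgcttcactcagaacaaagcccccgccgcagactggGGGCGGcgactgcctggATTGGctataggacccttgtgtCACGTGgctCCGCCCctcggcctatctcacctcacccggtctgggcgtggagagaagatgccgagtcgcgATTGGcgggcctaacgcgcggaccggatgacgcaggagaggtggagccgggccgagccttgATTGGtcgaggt
Scap promoter: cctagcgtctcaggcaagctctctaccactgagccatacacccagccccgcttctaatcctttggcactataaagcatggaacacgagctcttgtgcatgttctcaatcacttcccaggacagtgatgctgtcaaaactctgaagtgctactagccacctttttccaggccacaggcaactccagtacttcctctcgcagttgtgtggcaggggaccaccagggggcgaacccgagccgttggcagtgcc
Over these 250 bases Insig1 holds 1 CCAAT, 3 GC boxes and 1 E-box, Cyp51 holds 1 CCAAT and 1 GC box, and Hsd17b7, which rose, holds 3 CCAAT, 3 GC boxes and 1 E-box. Scap, which rose most, holds none of the 3 in this stretch, but its RefSeq windows, which also take in the bases after the start, hold 1 GC box and 1 E-box at the start shown and 3 GC boxes and 1 E-box at a start further on. Those shown are not the extremes throughout. Stard4 fell further than Cyp51 but had no window. Acss2 rose more than Hsd17b7 and is not printed, and its RefSeq window holds 1 CCAAT and 5 GC boxes. A match is a description of the letters only.

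In the mevalonate steps, which turn acetyl-CoA into isoprenoid units, 1 of 6 genes fell and 1 rose in mutant cells (median log2 fold change -0.32), and 2 fell and 1 rose in WT cells (median -0.30). Fdps, which makes farnesyl diphosphate at the branch between sterols and isoprenoids, fell in both, to 1.84 and 1.62 CPM in mutant doxorubicin libraries against 3.16 and 2.71 CPM in mutant controls, and to 1.52 and 2.04 CPM in WT doxorubicin libraries against 3.12 and 2.29 CPM in WT controls. The log2 fold changes were -0.76 ± 0.23 (edgeR adjusted p = 0.00920) in mutant cells and -0.58 ± 0.23 (edgeR adjusted p = 0.0325) in WT cells. In GENCODE 26.7% of its exon bases overlap Gm43738 on the same strand. Mvd, the decarboxylase before isopentenyl diphosphate, fell in WT cells (log2 -1.14 ± 0.46, edgeR adjusted p = 0.0396) and had -1.05 ± 0.47 (edgeR adjusted p = 0.0663) in mutant cells, at under 1 CPM in every library. It passed the count filter only through the control libraries, with 9 and 9 counts in WT doxorubicin libraries and 9 and 7 in mutant ones. The filter thus favoured a fall, and Mvd is nevertheless counted among the falls in WT cells.

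Acat2, the cytosolic thiolase that starts the pathway, was the 1 member of these steps that rose. It had 146 and 147 CPM in mutant doxorubicin libraries, against 119 and 134 CPM in mutant controls. It had 148 and 147 CPM in WT doxorubicin libraries, against 122 and 118 CPM in WT controls. The groups did not overlap, and the rise was small, log2 0.21 ± 0.07 in mutant cells (edgeR adjusted p = 0.0188) and 0.30 ± 0.07 in WT cells (edgeR adjusted p = 0.00124). The mutant call was lost with upper-quartile scaling (log2 0.15, edgeR adjusted p = 0.0925), without mutant control A (0.12, adjusted p = 0.272) and without mutant doxorubicin A or B (adjusted p = 0.0624 and 0.0769). Of the 50-base stretches of Acat2 transcripts, 39.1% also occur in its near copy Acat3, so the split of reads between them is uncertain.

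The kinases Mvk and Pmvk and the isomerase Idi1 were not called. Pmvk had 0.841 and 0.831 CPM in mutant doxorubicin libraries against 0.995 and 1.29 CPM in mutant controls, and 0.895 and 1.10 CPM in WT doxorubicin libraries against 0.891 and 0.967 CPM in WT controls. The 95% interval of its log2 fold change ran from -1.11 to 0.22 in mutant cells and from -0.54 to 0.74 in WT cells. Counts of Mvk ranged from 13 to 29 and those of Idi1 from 15 to 30 per library, a depth at which smaller changes were not detectable.

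Between squalene and cholesterol, 6 of 11 genes fell and 1 rose in mutant cells (median log2 fold change -0.39), and 5 fell and 2 rose in WT cells (median -0.28). Fdft1 (squalene synthase) fell by 1.23 ± 0.27 on the log2 scale in mutant cells (edgeR adjusted p = 5.28e-04) and by 0.84 ± 0.24 in WT cells (edgeR adjusted p = 0.00560). It overlaps an exon of Ctsb on the opposite strand over 18.3% of its exon bases. Sqle, the epoxidase that is a rate-limiting step of sterol synthesis, had 25.0 and 21.8 CPM in mutant doxorubicin libraries against 42.7 and 40.2 CPM in mutant controls. In WT cells it had 21.9 and 20.4 CPM with doxorubicin against 35.9 and 39.5 CPM in controls. Its log2 fold changes were -0.83 ± 0.09 (edgeR adjusted p = 1.67e-07) in mutant cells and -0.84 ± 0.09 (edgeR adjusted p = 1.18e-07) in WT cells. Lss, which closes squalene epoxide to lanosterol, fell in mutant cells (log2 -0.60 ± 0.16, edgeR adjusted p = 0.00397) and had -0.24 ± 0.16 in WT cells (edgeR adjusted p = 0.224).

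Cyp51, the demethylase of lanosterol, gave the largest fall among the enzymes. It had 97.6 and 92.0 CPM in mutant doxorubicin libraries, against 258 and 248 CPM in mutant controls. It had 97.9 and 100 CPM in WT doxorubicin libraries, against 237 and 252 CPM in WT controls. All treated libraries lay below all controls, at 37.5% of control in mutant cells (log2 -1.42 ± 0.07, edgeR adjusted p = 2.81e-13) and 40.5% in WT cells (log2 -1.30 ± 0.07, edgeR adjusted p = 8.30e-13).

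The later oxidations moved less. Sc4mol, now Msmo1, the oxidase of the methyl groups, fell by 0.39 ± 0.08 on the log2 scale in mutant cells (edgeR adjusted p = 4.26e-04) and by 0.28 ± 0.08 in WT cells (edgeR adjusted p = 0.00547). Sc5d, the desaturase, had 152 and 142 CPM in mutant doxorubicin libraries against 178 and 185 CPM in mutant controls, and 111 and 120 CPM in WT doxorubicin libraries against 161 and 156 CPM in WT controls. It fell in both genotypes without overlap, by 0.30 ± 0.07 in mutant cells (edgeR adjusted p = 9.31e-04) and by 0.46 ± 0.07 in WT cells (edgeR adjusted p = 9.26e-06).

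Hsd17b7, the ketoreductase that works beside Nsdhl on the methyl groups, rose in both genotypes. Mutant libraries had 529 and 566 CPM with doxorubicin, against 355 and 335 CPM in controls. WT libraries had 555 and 577 CPM with doxorubicin, against 328 and 304 CPM in controls. The groups lay well apart, with log2 fold changes of 0.67 ± 0.07 (edgeR adjusted p = 3.47e-08) in mutant cells and 0.84 ± 0.07 (edgeR adjusted p = 8.13e-10) in WT cells. None of its 50-base transcript stretches occurs in another gene's transcripts. Nsdhl had 11.6 and 11.2 CPM in mutant doxorubicin libraries against 11.1 and 9.55 CPM in mutant controls, and 15.0 and 12.5 CPM in WT doxorubicin libraries against 9.47 and 11.0 CPM in WT controls. It rose in WT cells (log2 0.42 ± 0.12, edgeR adjusted p = 0.00626) and had 0.14 ± 0.13 in mutant cells (edgeR adjusted p = 0.381).

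Ebp, the isomerase of the sterol double bond, was not called, at 9.81 and 10.8 CPM in mutant doxorubicin libraries against 10.7 and 10.4 CPM in mutant controls, and 9.94 and 9.74 CPM in WT doxorubicin libraries against 9.10 and 9.70 CPM in WT controls. Its 95% interval ran from -0.28 to 0.21 in mutant cells and from -0.18 to 0.30 in WT cells, which bounds the change more tightly than for Tm7sf2 and Dhcr7. Those reductases had 8 to 16 and 6 to 18 counts per library and were not called.

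In fatty acid synthesis and desaturation, 6 of 10 genes fell and 1 rose in each genotype, with a median log2 fold change of -0.49 in both. Acaca and Fasn, which build palmitate from acetyl-CoA, both fell. Fasn had 3.24 and 3.36 CPM in mutant doxorubicin libraries against 5.93 and 6.30 CPM in mutant controls, and 2.92 and 3.79 CPM in WT doxorubicin libraries against 6.42 and 6.15 CPM in WT controls. Its log2 fold change was -0.89 ± 0.17 in mutant cells (edgeR adjusted p = 1.03e-04) and -0.90 ± 0.16 in WT cells (edgeR adjusted p = 4.81e-05). Acaca fell by 0.90 ± 0.23 in mutant cells (edgeR adjusted p = 0.00248) and by 1.14 ± 0.24 in WT cells (edgeR adjusted p = 3.46e-04), with 30.4% of its 50-base transcript stretches shared with other genes, chiefly Gm5182.

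The desaturases Scd1 and Scd2, neighbouring gene copies that make monounsaturated fatty acids, fell by different amounts. Scd2 had 157 and 151 CPM in mutant doxorubicin libraries, against 334 and 337 CPM in mutant controls, and 130 and 135 CPM in WT doxorubicin libraries, against 290 and 274 CPM in WT controls. Scd1 had 373 and 354 CPM in mutant doxorubicin libraries, against 462 and 449 CPM in mutant controls, and 314 and 372 CPM in WT doxorubicin libraries, against 465 and 423 CPM in WT controls. No treated library of either gene reached its controls. Scd2 fell by 1.13 ± 0.07 on the log2 scale in mutant cells (edgeR adjusted p = 5.84e-12) and by 1.09 ± 0.07 in WT cells (edgeR adjusted p = 7.82e-12). Scd1 fell by 0.33 ± 0.08 in mutant cells (edgeR adjusted p = 0.00119) and by 0.37 ± 0.08 in WT cells (edgeR adjusted p = 2.93e-04). The difference between the copies was not tested. Of the 50-base stretches, 2.66% of those of Scd2 occur in Scd1 and 3.42% of those of Scd1 in Scd3.

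The elongase Elovl6 and the desaturase Fads1 also fell. Elovl6 had 13.3 and 12.3 CPM in mutant doxorubicin libraries against 24.7 and 23.9 CPM in mutant controls, and 13.7 and 12.6 CPM in WT doxorubicin libraries against 24.0 and 20.6 CPM in WT controls (log2 -0.92 ± 0.11 in mutant cells and -0.76 ± 0.10 in WT cells, edgeR adjusted p = 1.87e-07 and 2.02e-06). Fads1 had log2 fold changes of -0.65 ± 0.10 in mutant cells and -0.61 ± 0.10 in WT cells (edgeR adjusted p = 6.50e-06 and 1.32e-05), with no overlap of the groups. Acss2, which makes acetyl-CoA from acetate, went the other way. It had 4.05 and 3.84 CPM in mutant doxorubicin libraries against 1.68 and 2.23 CPM in mutant controls, and 5.07 and 3.94 CPM in WT doxorubicin libraries against 1.52 and 2.08 CPM in WT controls. Treated libraries lay above controls in both genotypes, and Acss2 rose 2.01-fold in mutant cells (log2 1.01 ± 0.21, edgeR adjusted p = 4.30e-04) and 2.47-fold in WT cells (log2 1.30 ± 0.21, edgeR adjusted p = 1.51e-05). The opposite-strand genes Acss2os, Gss and Ggt7 overlap 3.3%, 3.89% and 1.94% of its exon bases.

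Acly, which makes acetyl-CoA from citrate, and the NADPH-making malic enzyme Me1 were not called although both were deeply counted. Acly had 465 and 463 CPM in mutant doxorubicin libraries against 486 and 478 CPM in mutant controls, and 441 and 453 CPM in WT doxorubicin libraries against 469 and 453 CPM in WT controls. Its 95% interval ran from -0.19 to 0.08 in mutant cells and from -0.18 to 0.09 in WT cells. For Me1 it ran from -0.20 to 0.11 in mutant cells and from -0.17 to 0.14 in WT cells, and 28.3% of its 50-base stretches occur in other transcripts, chiefly Gm7049. Fads2, at 19 to 29 counts per library, was not called either.

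Whether the response itself depended on Dino genotype was tested as the difference between the mutant and the WT log2 fold change. None of the 33 members was called higher or lower in this difference by edgeR, where 0.0407% of all rows were called higher and 0.0488% lower, and DESeq2 and limma-voom also called none of the members. At an unadjusted p under 0.05 there were 2 members, Insig1 and Insig2, against 5.68% of all rows. Insig1 fell less in mutant cells, with a difference of 0.26 (95% interval 0.03 to 0.48, edgeR adjusted p = 0.765), and Insig2 had a difference of -0.30 (95% interval -0.55 to -0.05, edgeR adjusted p = 0.743). The intervals of the other 31 held 0. For the 10 members with over 1000 counts in every library the bounds lay between -0.37 and 0.48, and over all members they reached -1.9 and 1.54, so for the thinly counted genes a sizeable difference could not be seen at this depth.

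**Figure D3:**
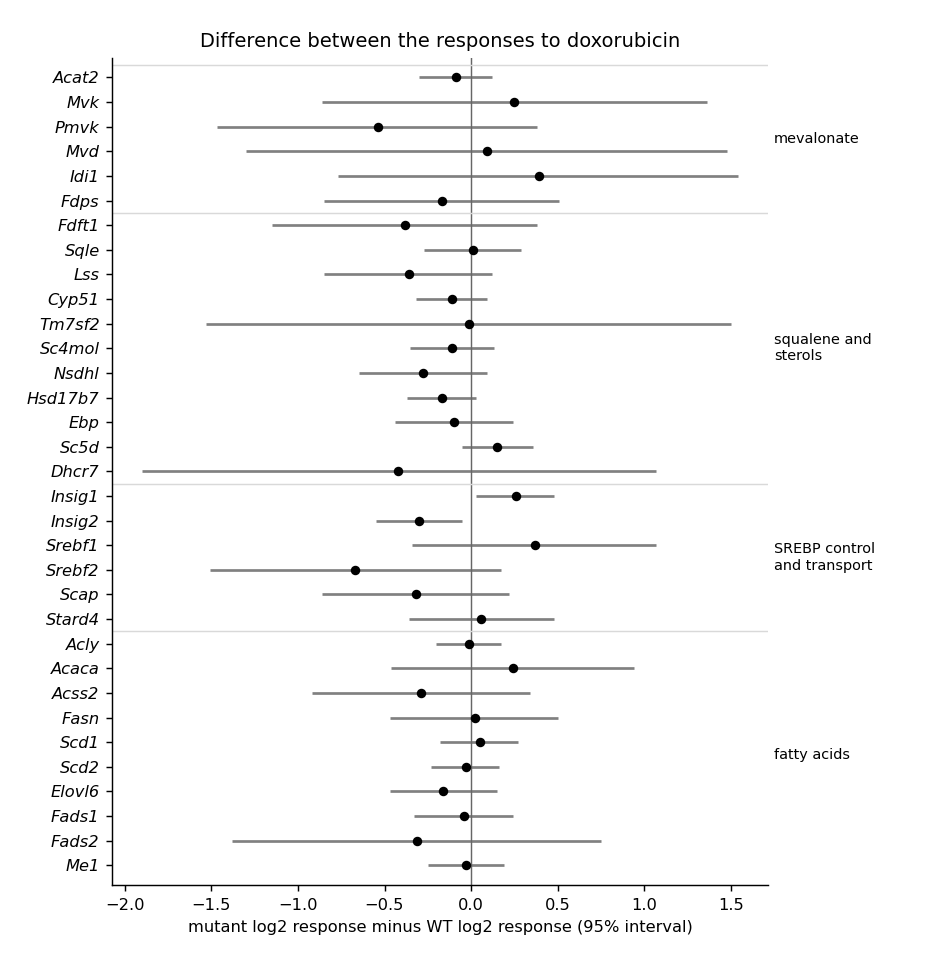
Mutant log2 response minus WT log2 response of each of the 33 genes (horizontal axis), with 95% intervals. The interval of Insig1 lies above 0 and that of Insig2 below it before adjustment, 31 intervals hold 0, and 15 lie within 0.5 on either side of 0.

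Mutant and WT cells were also compared directly within each treatment. Without drug 1 member was called higher in mutant cells and none lower by edgeR, where 2.77% of all rows were called higher and 3.17% lower. Unadjusted edgeR p-values under 0.05 were found for 3 members higher (Lss, Sc5d and Scd2) and 1 lower (Insig1). Of all rows, 15.4% had such a p-value in either direction, so the members do not stand out. DESeq2 and limma-voom likewise called none lower. The call was Scd2, at 334 and 337 CPM in mutant controls against 290 and 274 CPM in WT controls (log2 0.25 ± 0.07, edgeR adjusted p = 0.0244). It was lost when any 1 of the 4 control libraries was left out (edgeR adjusted p from 0.0501 to 0.248).

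With doxorubicin 1 member was called higher in mutant cells and 1 lower, where 3.93% of all rows were called higher and 3.74% lower. Sc5d was higher, at 152 and 142 CPM in mutant doxorubicin libraries against 111 and 120 CPM in WT doxorubicin libraries (log2 0.35 ± 0.07, edgeR adjusted p = 0.00248), and it was lost without mutant doxorubicin A (log2 0.30, edgeR adjusted p = 0.0546). Insig2 was lower, at 29.2 and 29.3 CPM in mutant doxorubicin libraries against 39.1 and 38.9 CPM in WT doxorubicin libraries (log2 -0.41 ± 0.09, edgeR adjusted p = 0.00295), and it was called under every alternative run. These comparisons share libraries with the responses above.

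The genotypes also differed in sex-linked RNA, which moves with each of these genotype calls. Xist had 576 and 470 CPM in mutant doxorubicin libraries and 254 and 212 CPM in mutant controls, against at most 0.376 CPM in any WT library. Ddx3y, on the Y chromosome, had 58.8 to 74.0 CPM in mutant libraries, against 448 to 580 CPM in WT libraries. The part of embryo sex in the genotype values was not tested, and genotype and sex composition cannot be told apart here; Nsdhl and Ebp are X-linked.

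Genes around the programme were counted from lists of the same pathways. Over all rows tested, 25.7% fell and 28.3% rose in mutant cells, and 27.9% fell and 29.3% rose in WT cells. Among other SREBP target genes, 5 of 13 tested fell and 2 rose in mutant cells (median log2 fold change -0.07), and 4 fell and 3 rose in WT cells (median 0.06). In percent, 38.5% fell and 15.4% rose in mutant cells, and 30.8% fell and 23.1% rose in WT cells. The 5 falls in mutant cells include Aldoc (edgeR adjusted p = 0.0493), with 2 and 5 counts in mutant doxorubicin libraries against 14 and 11 in mutant controls. Aldoc passed the count filter only through the mutant controls, so only a fall could be called for it in mutant cells. Acsl3, an acyl-CoA synthetase, fell by 1.18 ± 0.12 in mutant cells and by 1.22 ± 0.12 in WT cells (edgeR adjusted p = 2.50e-08 and 1.02e-08), and the elongase Elovl5 fell by 0.74 ± 0.07 in mutant cells and by 0.92 ± 0.07 in WT cells (edgeR adjusted p = 8.56e-09 and 2.41e-10). Lpin1, a phosphatidate phosphatase of glycerolipid synthesis, had 31.7 and 34.3 CPM in mutant doxorubicin libraries against 2.57 and 2.03 CPM in mutant controls, and 39.5 and 36.2 CPM in WT doxorubicin libraries against 2.41 and 1.88 CPM in WT controls. It rose by 3.84 ± 0.14 on the log2 scale in mutant cells and by 4.15 ± 0.14 in WT cells (edgeR adjusted p = 1.14e-15 and 2.76e-16).

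Among genes of SREBP processing and turnover, 7 of 19 fell and 6 rose in mutant cells (median -0.10), and 8 fell and 6 rose in WT cells (median -0.13). The rises made up 31.6% in each genotype, near the 28.3% of all rows in mutant cells and 29.3% in WT cells. The falls made up 36.8% in mutant and 42.1% in WT cells, against 25.7% and 27.9% of all rows. Mbtps2, the intramembrane protease that frees SREBP in the Golgi, had 45.8 and 41.0 CPM in mutant doxorubicin libraries against 102 and 94.3 CPM in mutant controls, and 47.9 and 45.4 CPM in WT doxorubicin libraries against 97.8 and 95.2 CPM in WT controls. It fell by 1.18 ± 0.08 on the log2 scale in mutant cells and by 1.05 ± 0.08 in WT cells (edgeR adjusted p = 5.59e-11 and 2.59e-10). Sec24d, a coat protein of the vesicles that leave the endoplasmic reticulum, fell by 1.30 ± 0.07 in each genotype (edgeR adjusted p = 1.99e-12 in mutant and 1.45e-12 in WT cells). Fbxw7, the ubiquitin ligase subunit that marks nuclear SREBP for breakdown, had 287 and 302 CPM in mutant doxorubicin libraries against 74.6 and 73.6 CPM in mutant controls, and 261 and 283 CPM in WT doxorubicin libraries against 69.3 and 65.1 CPM in WT controls. It rose by 1.99 ± 0.07 in mutant cells and by 2.02 ± 0.07 in WT cells (edgeR adjusted p = 1.95e-15 and 1.33e-15). Of the NF-Y subunits, Nfyb rose (log2 1.74 ± 0.08 in mutant and 1.72 ± 0.08 in WT cells) while Nfya fell (log2 -0.69 ± 0.11 in mutant and -1.07 ± 0.11 in WT cells) and Nfyc fell (log2 -0.76 ± 0.21 in mutant and -0.53 ± 0.21 in WT cells).

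In the isoprenoid branch that leaves the route at farnesyl diphosphate, 7 of 15 genes fell and 3 rose in mutant cells (median -0.35), and 6 fell and 5 rose in WT cells (median 0.07). In percent, 46.7% fell and 20% rose in mutant cells, and 40% fell and 33.3% rose in WT cells. Rabggtb, a prenyl transferase subunit for Rab proteins, fell by 1.30 ± 0.10 in mutant cells and by 1.25 ± 0.09 in WT cells (edgeR adjusted p = 2.14e-10 and 2.40e-10), while Dolk, the dolichol kinase, rose by 1.20 ± 0.16 in mutant cells and by 1.29 ± 0.15 in WT cells (edgeR adjusted p = 1.74e-06 and 1.74e-07).

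The list of LXR targets, sterol efflux and sterol esters had more rises than falls. Of 14 genes tested, 10 rose and 3 fell in each genotype, with a median log2 fold change of 0.79 in mutant cells and 0.76 in WT cells. Abcg1, a sterol exporter, had 22.2 and 24.0 CPM in mutant doxorubicin libraries against 8.95 and 9.14 CPM in mutant controls, and 19.2 and 17.6 CPM in WT doxorubicin libraries against 4.42 and 4.45 CPM in WT controls. It rose by 1.35 ± 0.11 in mutant cells and by 2.05 ± 0.12 in WT cells (edgeR adjusted p = 5.71e-10 and 2.29e-12), and the difference between the responses was not called (edgeR adjusted p = 0.127). Abca1 rose by 0.46 ± 0.10 and 0.58 ± 0.10 in mutant and WT cells (edgeR adjusted p = 6.96e-04 and 4.85e-05). The same 3 genes of the list fell in both genotypes. The LXR target Mylip, which marks the LDL receptor for breakdown, had log2 -0.76 ± 0.16 in mutant and -1.12 ± 0.16 in WT cells. Soat1, which makes sterol esters for storage, had log2 -0.25 ± 0.08 in mutant and -0.40 ± 0.08 in WT cells. The oxysterol hydroxylase Cyp7b1 had log2 -2.43 ± 0.28 in mutant and -2.32 ± 0.24 in WT cells. Cyp27a1, a sterol hydroxylase, had 7 and 11 counts in mutant doxorubicin libraries against 0 in both mutant controls, and 42 and 33 counts in WT doxorubicin libraries against 0 and 1 in WT controls. It passed the count filter only through the doxorubicin libraries, so only a rise could be called for it. It is nevertheless counted among the 10 rises in each genotype.

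Fatty acid oxidation, the reverse of fatty acid synthesis, also had more rises. Of 19 genes tested, 10 rose and 2 fell in mutant cells (median log2 fold change 0.48), and 11 rose and 3 fell in WT cells (median 0.42). Pdk4, the kinase that shuts pyruvate out of the citrate cycle when fat is burned, had 496 and 486 CPM in mutant doxorubicin libraries against 31.3 and 32.9 CPM in mutant controls, and 754 and 690 CPM in WT doxorubicin libraries against 66.6 and 62.9 CPM in WT controls. It rose by 3.94 ± 0.08 in mutant cells and by 3.48 ± 0.08 in WT cells (edgeR adjusted p = 9.34e-20 and 5.08e-19), with no call for the difference (edgeR adjusted p = 0.107). Etfdh, which passes electrons from fatty acid oxidation to the respiratory chain, rose by 1.77 ± 0.10 in mutant cells and by 1.74 ± 0.10 in WT cells (edgeR adjusted p = 4.88e-12 and 2.75e-12). Cpt1a, the carnitine transferase that admits fatty acids to mitochondria, fell instead, by 0.62 ± 0.11 in mutant cells and by 0.52 ± 0.11 in WT cells (edgeR adjusted p = 8.90e-05 and 3.55e-04). These list counts are descriptions beside the shares over all rows, with no test of any list.

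**Figure D4:**
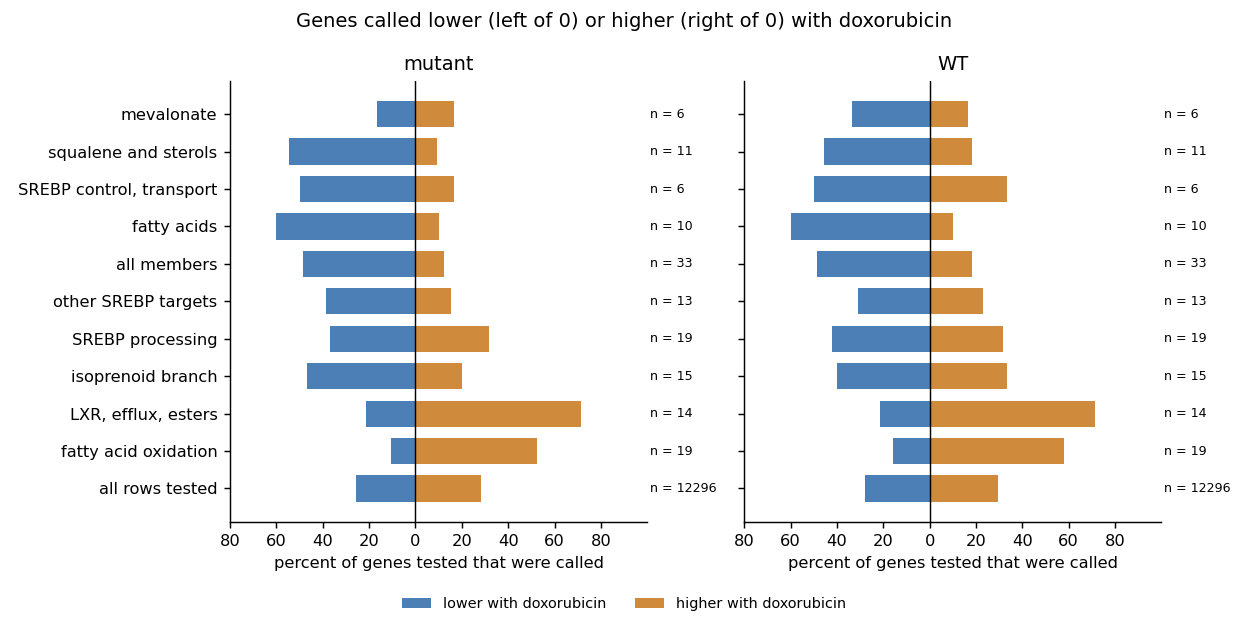
Percent of tested genes called lower (bars to the left of 0) and higher (bars to the right) with doxorubicin in mutant and WT cells, for the 4 role groups, the 33 members together, 5 lists of surrounding genes and all 12296 rows. The members together reach 48.5% lower in both panels, against 25.7% of all rows in mutant and 27.9% in WT cells, while the LXR and fatty acid oxidation lists reach 71.4% and 52.6% higher in mutant cells and 71.4% and 57.9% higher in WT cells.

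The treatment labels and the cell type were checked once. Summed CPM of the p53 targets Cdkn1a, Mdm2, Ccng1 and Pmaip1 were 7980 to 8040 in mutant doxorubicin libraries against 1600 to 1650 in mutant controls, and 8360 to 8640 in WT doxorubicin libraries against 1560 to 1660 in WT controls. Ccng1 made up most of these sums. Each of the 4 rose in both genotypes. Cdkn1a and Pmaip1 were called lower in mutant than in WT cells, in controls (log2 -0.49 and -0.57) and with doxorubicin (log2 -0.45 and -0.44). Mdm2 and Ccng1 were called in neither. Summed CPM of the 10 fibroblast markers were 3820 to 4530 over all libraries, most of it from Col1a2 and Vim. Single markers went both ways: 4 fell in each genotype (Col3a1, Vim, Pdgfra and Pdgfrb), while 1 rose in mutant cells (Dcn) and 3 rose in WT cells (Dcn, Thy1 and Fn1). Pdgfra had log2 fold changes of -1.80 ± 0.10 in mutant and -1.90 ± 0.10 in WT cells, and Dcn had 0.47 ± 0.08 in mutant and 0.50 ± 0.08 in WT cells. Summed CPM of 8 adipocyte markers, a cell type rich in the fatty acid genes above, were 13.3 to 14 in mutant doxorubicin libraries, 8.75 to 9.44 in mutant controls, 15.9 to 16.9 in WT doxorubicin libraries and 11.4 in both WT controls. Fabp4 made up nearly all of this, and Plin1, Cidec and Retn were at 0 in every library. The sums of 7 macrophage markers were 31.1 to 35.5 CPM in mutant doxorubicin libraries, 26.7 to 27.4 CPM in mutant controls, 30.9 to 32 CPM in WT doxorubicin libraries and 20.4 to 21.5 CPM in WT controls. Those of 4 endothelial markers were 5.69 to 5.86, 1.34 to 1.73, 6.64 to 11.1 and 2.08 to 2.96 CPM in those groups in the same order. Tek carried the higher endothelial sums, with 4.37 and 4.63 CPM in mutant doxorubicin libraries against 0.514 and 0.338 CPM in mutant controls, and 9.45 and 5.60 CPM in WT doxorubicin libraries against 0.780 and 1.17 CPM in WT controls. Kdr and Cdh5 were not called in either response, and Pecam1 was at most 0.0663 CPM. The part of these cell types in the results was not tested. Epithelial markers summed to at most 0.711 CPM and hepatocyte markers to at most 0.0401 CPM. The chi-square per degree of freedom of A against B was 18.1 for WT with doxorubicin, against 5.42 to 6.14 for the other groups. Without WT doxorubicin A the WT response had 13 members lower and 4 higher, and without WT doxorubicin B it had 12 lower and 6 higher.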

How the data were processed

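RNA of 8 libraries in 4 groups of 2 was analysed from the deposited table of raw counts, 1 row per gene. The authors made it with Bowtie2, HTSeq and mouse build mm9, per the submitters' processing notes. Annotation, strand setting and the handling of multiply mapping reads are not given in the sources used here. A capture-based RNA kit and 3' sequencing both appear in the labels, and which applies was not settled. Groups and letters were taken from the sample titles and source names.

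Rows with at least 10 counts in 2 or more libraries were kept (12296 of 30419), scaled by TMM and fitted in R 4.3.3 with edgeR 4.0.16 (quasi-likelihood, 1 coefficient per group over all 8 libraries, biological coefficient of variation 0.0636). The 5 comparisons The 5 comparisons were each response to doxorubicin, their difference, and mutant against WT in each treatment. P-values are two-sided and Benjamini-Hochberg adjusted over all rows, and SE and 95% intervals come from the same fit. DESeq2 1.42.0, limma 3.58.1 (voom), other scalings and filters, a replicate block and leaving out each library were alternatives. Total counts per library were 25482805 to 33285171. Where a gene has no count, up to 3 counts (0.0879 to 0.12 CPM) remain possible, for counting error only. The fit was tested on simulated counts.

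Members and lists were chosen with earlier results of these data known. By rule, library values were printed for the 3 called members with the largest change in each direction per response, for the Insig, Srebf and Scap genes, for members called between genotypes, and for the called and the uncalled member of each role with the highest mean CPM. Other members and list genes were chosen after their values were seen. Shared 50-base stretches and overlaps used GENCODE vM21 transcripts, and promoter windows RefSeq GRCm38.p6, for names and sequence only and not for the counts.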

Additional observations from a re-analysis of the deposited data

Results flagged for a closer look

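Insig2 was the member whose treated libraries lay on opposite sides of their controls in mutant and WT cells. Both mutant doxorubicin libraries (29.2 and 29.3 CPM) lay just below both mutant controls (29.8 and 31.2 CPM), a change that was not called (log2 -0.06 ± 0.09). Both WT doxorubicin libraries (39.1 and 38.9 CPM) lay above both WT controls (31.5 and 34.6 CPM), a rise that lost its call under settings given above. The share of all rows with such a pattern was not computed. The difference between the log2 responses, mutant minus WT, was -0.30 (95% interval -0.55 to -0.05). Its unadjusted p was 0.0217, and the edgeR adjusted p over all rows was 0.743, so the difference was not called.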

How the results depend on the processing

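Over the alternatives run, the WT response had 11 to 16 members lower and 4 to 6 higher, and the mutant response 12 to 17 lower and 3 to 4 higher. Both lowest counts of falls came from a filter of 5 CPM in 2 libraries, which tested 20 members. Leaving out 1 library at a time gave 12 to 16 lower and 4 to 6 higher in WT cells, and 15 to 16 lower and 3 to 4 higher in mutant cells. The difference between the responses had 0 members under every alternative run. Mutant against WT in control gave 0 to 1 members higher when 1 library was left out, with 0 without each of the 4 control libraries. With doxorubicin it gave 2 higher with upper-quartile scaling, DESeq2, the 5 CPM filter or an adjusted p under 0.10, where Scd2 joined Sc5d (edgeR adjusted p = 0.0552 for Scd2), and 0 to 2 when 1 library was left out. The log2 fold change of Pmvk in WT cells, 0.10, ranged from -0.06 (without WT doxorubicin B) to 0.23 (without WT doxorubicin A) when 1 library was left out, and was called in neither. Single-gene response calls were followed over the settings only for genes picked by rule, which leaves out Mvd, Fdps, Fdft1, Lss and the WT rise of Nsdhl. Among the genes followed, Insig2 and Srebf1 in WT cells and Acat2 and Srebf2 in mutant cells lost their calls under settings given above. With DESeq2 13 members fell in WT cells, against 16 in the main fit, so calls besides that of Srebf1 were also lost. The cause was not tested. The letters A and B carried no shared shift between groups (correlations of A minus B from -0.03 to 0.04), which does not settle whether samples were paired. A fit with the letter as a replicate block gave 16 lower and 6 higher in WT cells and 16 lower and 4 higher in mutant cells, as without it. Depth limits the 11 members with under 100 counts, and 2 libraries per group limit all of them.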
